A study of Homo sapiens with 24 samples.

Results

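The RNA of 10 enzymes of serine, glycine and one-carbon metabolism was followed: PHGDH, PSAT1, PSPH, SHMT1, SHMT2, MTHFD1, MTHFD1L, MTHFD2, ALDH1L2 and GLDC. They were found by gene name in a count table of 58735 genes, where all 10 had a single row. RNA came from SAS, a human oral squamous carcinoma line, in 2 genotypes of NRF2 (encoded by NFE2L2), the E79Q form and wild type (WT). Each genotype was irradiated after CB-839, irradiated after vehicle, given CB-839 alone, or left untreated, which made 8 groups of 3 libraries and 24 libraries in all. CB-839, an inhibitor of glutaminase, was given at 0.1 µM for 24 h before X-rays of 4 Gy, and RNA was isolated 24 h after radiation. The sources used here do not say how the E79Q form was introduced, whether each genotype is 1 clone, whether the drug stayed on after radiation, or when unirradiated cells were collected. The design text describes only the irradiated groups, as 12 samples, so whether the unirradiated libraries were prepared with them is unknown, and radiation and such a batch cannot be told apart. No vehicle is stated for untreated cells. Set against them, an effect of vehicle cannot be told apart from that of radiation or of CB-839 alone. The labels do not say that replicates were separate cultures, so p-values measure only the spread between these libraries.

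Serine is made from a glycolytic intermediate in 3 steps: PHGDH oxidises 3-phosphoglycerate, PSAT1 transfers an amino group from glutamate, and PSPH removes the phosphate. SHMT2 in mitochondria and SHMT1 in the cytosol split serine into glycine and a one-carbon unit carried by folate. In mitochondria MTHFD2, MTHFD1L and ALDH1L2 oxidise or release that unit, MTHFD1 handles it in the cytosol, and GLDC belongs to the complex that breaks down glycine. PSAT1 uses glutamate, the product of glutaminase, and several of these genes are known targets of ATF4, a transcription factor of the amino acid response.

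Total counts ran from 14285084 to 23640197 per library, and 15956 genes passed the filter on low counts. All 8 squamous markers were detected, with a summed level of 1770 to 3280 CPM (counts scaled to the size of the library). Leukocyte markers summed to 0.197 to 3.55 CPM, endothelial markers to 1.35 to 4.96 CPM and fibroblast markers to 3.03 to 29.9 CPM. NQO1, a target of NRF2, averaged 587 ± 22.1 CPM in untreated E79Q cells and 354 ± 3.06 CPM in untreated WT cells (SD, n = 3 each). Pearson's r, across genes, between GC content and a library's departure from the mean of its group ran from -0.38 to 0.48 over the 24 libraries. Both ends were in irradiated E79Q cells given CB-839, where library 2 had 0.48 and library 1 had -0.38, and such departures sum to 0 within a group. Library 2 also stood apart in PHGDH, SHMT2 and ALDH1L2, and called values resting on that group are given with and without it.

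The genes lie on 8 chromosomes of GRCh38, all annotated as protein coding, and each count stands for the whole gene. PHGDH (ENSG00000092621) lies at chr1:119648411-119744226, PSAT1 (ENSG00000135069) at chr9:78297143-78330093 and PSPH (ENSG00000146733) at chr7:56011051-56051604. SHMT2 (ENSG00000182199) lies at chr12:57229327-57234935, SHMT1 (ENSG00000176974) at chr17:18327860-18363563 and MTHFD2 (ENSG00000065911) at chr2:74198562-74217565. MTHFD1L (ENSG00000120254) lies at chr6:150865549-151101887, ALDH1L2 (ENSG00000136010) at chr12:105019784-105084577, MTHFD1 (ENSG00000100714) at chr14:64388031-64463457 and GLDC (ENSG00000178445) at chr9:6532464-6645783. The strand setting of the counting is not given, so reads from opposite-strand neighbours cannot be told apart from those of SHMT2 (NDUFA4L2), SHMT1 (SMCR8), MTHFD1 (ZBTB25), MTHFD2 (SLC4A5) and ALDH1L2 (C12orf45). PSPH has an expressed pseudogene, PSPHP1, with 65 to 148 counts per library, so its values carry the limit that reads may be split between them. Pseudogenes of the other members had at most 5 counts.

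Of the 10 members, 7 have an entry in RefSeq's promoter table (GRCh38.p14). The promoters of PHGDH, PSAT1 and MTHFD2 are shown because, of these 7, they are the genes whose response to CB-839 without radiation differed between the genotypes. Each sequence runs from 250 bases before the annotated start to 50 after it, on the gene's own strand. For PHGDH and MTHFD1L that start lies well inside the gene interval given above, so their windows are not at the first base of the gene. They come from chr1:119711684-119711983, chr9:78296875-78297174 and chr2:74198365-74198664, each on the plus strand, in the order shown. Capitals mark a match to TGACNNNGC, the core of the antioxidant response element to which NRF2 binds.
PHGDH: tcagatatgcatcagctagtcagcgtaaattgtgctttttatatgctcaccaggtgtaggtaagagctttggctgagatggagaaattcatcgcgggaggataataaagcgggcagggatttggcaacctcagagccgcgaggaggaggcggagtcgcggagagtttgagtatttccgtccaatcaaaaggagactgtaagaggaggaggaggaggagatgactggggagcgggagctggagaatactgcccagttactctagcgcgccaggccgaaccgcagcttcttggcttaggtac
PSAT1: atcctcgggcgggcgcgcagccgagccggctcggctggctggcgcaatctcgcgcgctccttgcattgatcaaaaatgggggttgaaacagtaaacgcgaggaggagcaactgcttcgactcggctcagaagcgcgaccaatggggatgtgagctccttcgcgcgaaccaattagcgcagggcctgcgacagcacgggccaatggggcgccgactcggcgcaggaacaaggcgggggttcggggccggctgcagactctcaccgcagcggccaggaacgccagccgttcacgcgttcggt
MTHFD2: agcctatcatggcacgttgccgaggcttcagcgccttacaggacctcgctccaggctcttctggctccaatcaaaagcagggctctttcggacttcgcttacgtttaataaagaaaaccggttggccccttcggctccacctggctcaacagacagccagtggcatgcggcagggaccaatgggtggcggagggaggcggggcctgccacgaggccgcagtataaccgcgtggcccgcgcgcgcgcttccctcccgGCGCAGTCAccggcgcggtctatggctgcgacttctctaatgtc
The 2 motifs were searched on both strands. TGACNNNGC occurred in 13.3% of 35116 promoters of that length and in 1 of the 7 members, MTHFD2, on the minus strand with its first base at position 7 after the start. TGATGNAA, the core of an ATF4-type element, occurred in 3.62% of promoters and in none of the 7 windows, which says only that these letters are not in these 300 bases.

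Transcript levels per length differed widely among the enzymes. With the deposited gene lengths, PSAT1 stood at 95.6, MTHFD2 at 79.5, SHMT2 at 63.2 and PHGDH at 32.4 CPM per kb in untreated WT cells. MTHFD1L stood at 32.1, PSPH at 22.7, MTHFD1 at 17.8, SHMT1 at 12.2 and ALDH1L2 at 3.82 CPM per kb. This order depends on the length used: with the principal transcript of each gene, an alternative chosen after seeing the data, PHGDH was at 116 CPM per kb, above PSAT1 at 95.6 and below SHMT2 at 120. Under both lengths ALDH1L2 was the lowest of the 9 tested members. GLDC had 93 reads in all, 54 in E79Q libraries and 39 in WT libraries, with 0 to 10 per library and a highest level of 0.598 CPM. It did not pass the filter and was not tested, and a difference in it was not detectable at this depth.

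**Figure D1:**
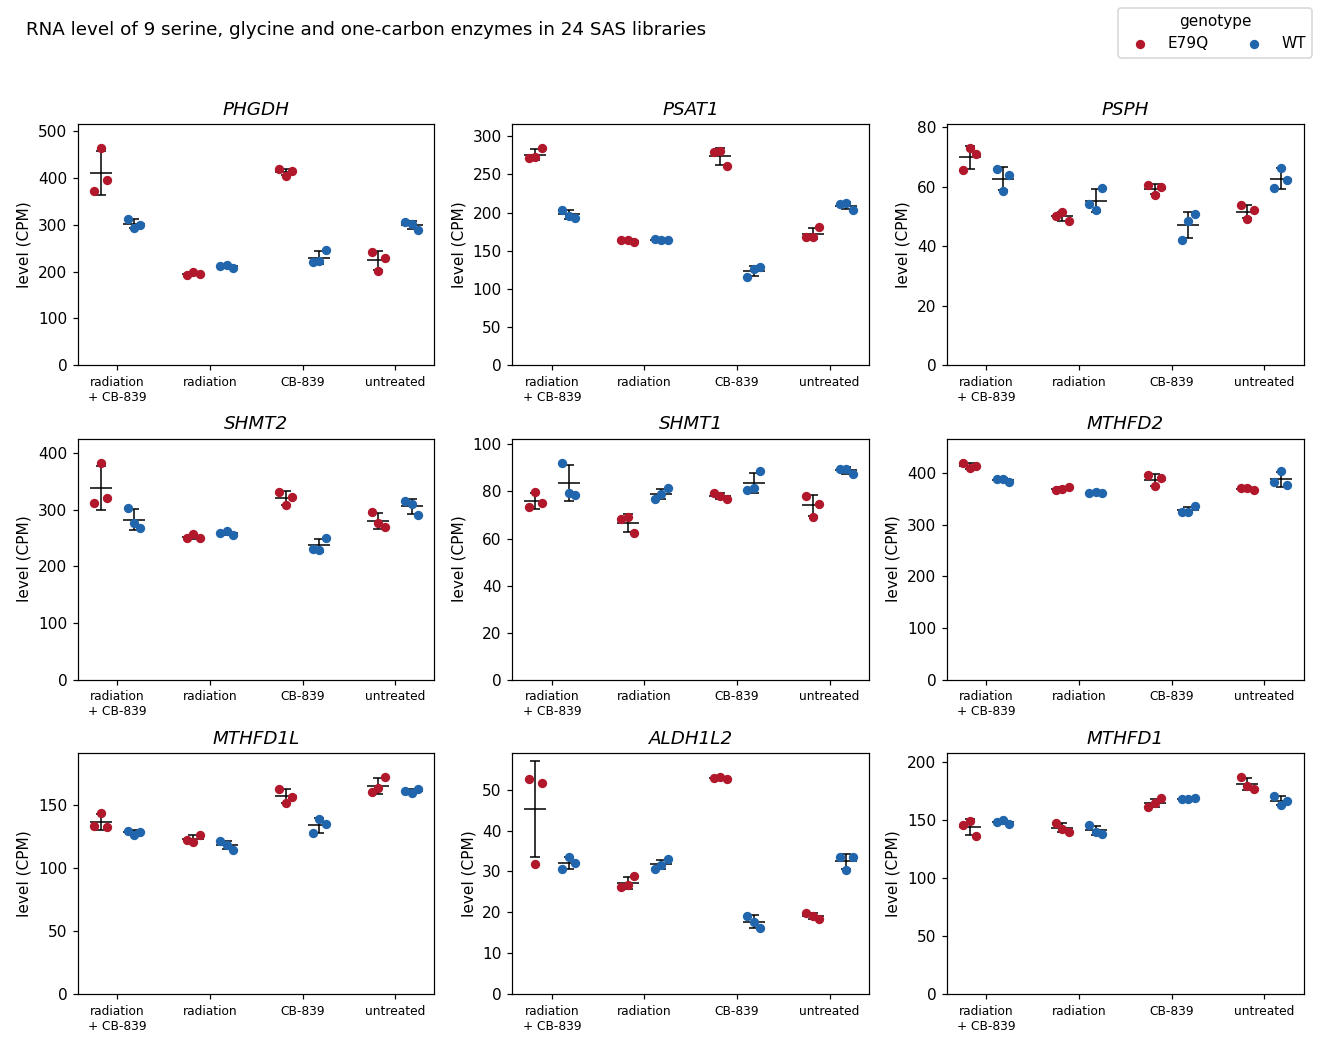
RNA level in CPM (linear axes from 0) of the 9 tested enzymes in each of the 24 libraries. Points are libraries (red E79Q, blue WT), and black bars are the mean ± SD of 3. In cells given CB-839 alone, every E79Q library lay above every WT library for PHGDH, PSAT1, PSPH, SHMT2, MTHFD2, MTHFD1L and ALDH1L2. There the genotypes did not overlap, in either direction, for 32.5% of all genes. In irradiated cells without the drug 5 of the 9 enzymes did not overlap between genotypes, against 32.4% of all genes, and SHMT1 alone passed the test.

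CB-839 without radiation lowered PSAT1, PHGDH and ALDH1L2 in WT cells and raised them in E79Q cells. In WT cells 7 of 9 tested enzymes fell, against 8.44% of all genes. In E79Q cells 4 rose and 1 fell, against 9.44% and 10.4% of all genes. The difference between the 2 drug effects was called for 6 enzymes, all 6 toward higher in E79Q, against 7.46% of all genes in that direction. Those 6 were the 3 steps of serine synthesis and the mitochondrial enzymes SHMT2, MTHFD2 and ALDH1L2. The cytosolic SHMT1 and MTHFD1 and the mitochondrial MTHFD1L did not pass the test of that difference.

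PSAT1, the aminotransferase, had 279, 281 and 261 CPM in E79Q cells given CB-839, against 169, 168 and 181 CPM in untreated E79Q cells. In WT cells it had 116, 126 and 128 CPM with the drug, against 211, 213 and 204 CPM without. The drug-treated and untreated libraries did not overlap in either genotype, and drug-treated E79Q cells were the highest of these 4 groups while drug-treated WT cells were the lowest. The log2 fold change with CB-839 was 0.66 (SE 0.048) in E79Q cells (edgeR's quasi-likelihood test, adjusted p = 8.37e-11) and -0.76 (SE 0.049) in WT cells (adjusted p = 5.77e-12). The difference, E79Q minus WT, was 1.43 (SE 0.069, 95% interval 1.28 to 1.57, edgeR adjusted p = 1.19e-13), and by p PSAT1 ranked 1 of the 15956 genes tested for it.

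PHGDH, the first enzyme of the pathway, had 419, 405 and 415 CPM in E79Q cells given CB-839, against 242, 201 and 229 CPM in untreated E79Q cells. WT cells had 221.5, 222 and 245 CPM of it with the drug, against 306, 301 and 289.9 CPM without. Again no library of a drug-treated group lay within the range of its untreated group. The log2 fold change was 0.88 (SE 0.066) in E79Q and -0.38 (SE 0.066) in WT cells, with edgeR adjusted p of 1.64e-10 and 0.000143, and the difference was 1.26 (SE 0.093, adjusted p = 1.67e-10).

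ALDH1L2, the mitochondrial formyltetrahydrofolate dehydrogenase, had the widest swing. Its level was 52.8, 53.1 and 52.6 CPM in E79Q cells given CB-839, against 19.9, 19.2 and 18.3 CPM in untreated E79Q cells. Its level in WT cells was 19.2, 17.7 and 16.04 CPM with the drug, against 33.4, 30.4 and 33.6 CPM without. Drug-treated E79Q cells held the highest values, and drug-treated WT cells overlapped untreated E79Q cells at the low end. Drug-treated and untreated cells did not overlap within a genotype. The log2 fold changes were 1.47 (SE 0.12) in E79Q and -0.88 (SE 0.12) in WT cells, and the difference was 2.35 (SE 0.17, edgeR adjusted p = 1.31e-10).

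PSPH, which completes serine synthesis, had 60.7, 57.3 and 59.8 CPM in E79Q cells given CB-839 and 53.7, 49.3 and 52.0 CPM in untreated E79Q cells, with no overlap. WT cells had 42.3, 48.4 and 50.9 CPM with the drug and 59.5, 66.4 and 62.2 CPM without, also with no overlap. It fell in WT cells (log2 fold change -0.41, SE 0.071, edgeR adjusted p = 0.000159). In E79Q cells its value of 0.20 (95% interval 0.05 to 0.35) did not pass (edgeR adjusted p = 0.0509), and the difference of 0.61 (SE 0.10) did (adjusted p = 0.000116).

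SHMT2, the mitochondrial serine hydroxymethyltransferase, had 332, 308 and 322 CPM in E79Q cells given CB-839 and 296, 276 and 269 CPM in untreated E79Q cells. WT cells held 231, 229.6 and 249.9 CPM with the drug and 316, 311 and 290.5 CPM without. The groups did not overlap in either genotype, though in E79Q cells the gap was narrow. Its log2 fold changes were 0.20 (SE 0.063, edgeR adjusted p = 0.0294) in E79Q and -0.37 (SE 0.064, adjusted p = 0.000148) in WT cells, with a difference of 0.56 (SE 0.090, adjusted p = 6.96e-05). The rise of SHMT2 in E79Q cells was not called without untreated library 2 (edgeR adjusted p = 0.122) or 3 (0.174), or without drug-treated library 1 (0.152), 2 (0.05) or 3 (0.104), nor without the filter on low counts (0.0506).

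MTHFD2, the mitochondrial methylenetetrahydrofolate dehydrogenase and cyclohydrolase, had 396, 374 and 391 CPM in E79Q cells given CB-839 and 371.5, 371.1 and 367 CPM in untreated E79Q cells. In WT cells it had 324, 325 and 335 CPM with the drug and 383, 404 and 376 CPM without. The shift was mainly in WT cells, where the groups were well apart, with a log2 fold change of -0.24 (SE 0.040, edgeR adjusted p = 8.22e-05). Its value in E79Q cells, 0.07, did not pass (95% interval -0.02 to 0.15), and the difference was 0.31 (SE 0.056, edgeR adjusted p = 0.00037).

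The remaining enzymes had smaller differences between the genotypes. MTHFD1L, the mitochondrial formate-releasing synthetase, fell in WT cells (log2 fold change -0.27, SE 0.050, edgeR adjusted p = 0.000349). Its difference of 0.19 (95% interval 0.04 to 0.34) did not pass. SHMT1 had a difference of 0.16 (95% interval -0.03 to 0.36) and MTHFD1, the cytosolic trifunctional enzyme, one of -0.15 (95% interval -0.29 to -0.01), neither past the threshold after adjustment. MTHFD1 fell slightly in E79Q cells (-0.14, SE 0.046, edgeR adjusted p = 0.0391). That call was lost without untreated library 1 (edgeR adjusted p = 0.156) or 2 (0.0565), or without drug-treated library 1 (0.11) or 2 (0.0918). It was also lost without the filter on low counts (0.156) and without the 4 libraries of most positive r with GC content (0.0627).

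Read against all genes tested, the counts were these. In E79Q cells CB-839 changed 5 of the 9 enzymes and 19.8% of all genes, with 4 enzymes and 9.44% of genes higher and 1 enzyme and 10.4% of genes lower (median log2 fold change 0.20 over the 9, 0.02 over all genes). The drug changed 14.8% of all genes in WT cells, 8.44% downward, and lowered 7 of the 9 enzymes (median -0.37, against -0.01 over all genes). The difference between the genotypes was called for 14.3% of all genes, 7.46% toward higher in E79Q, and for 6 of the 9 enzymes (median 0.56, against 0.03 over all genes).

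**Figure D2:**
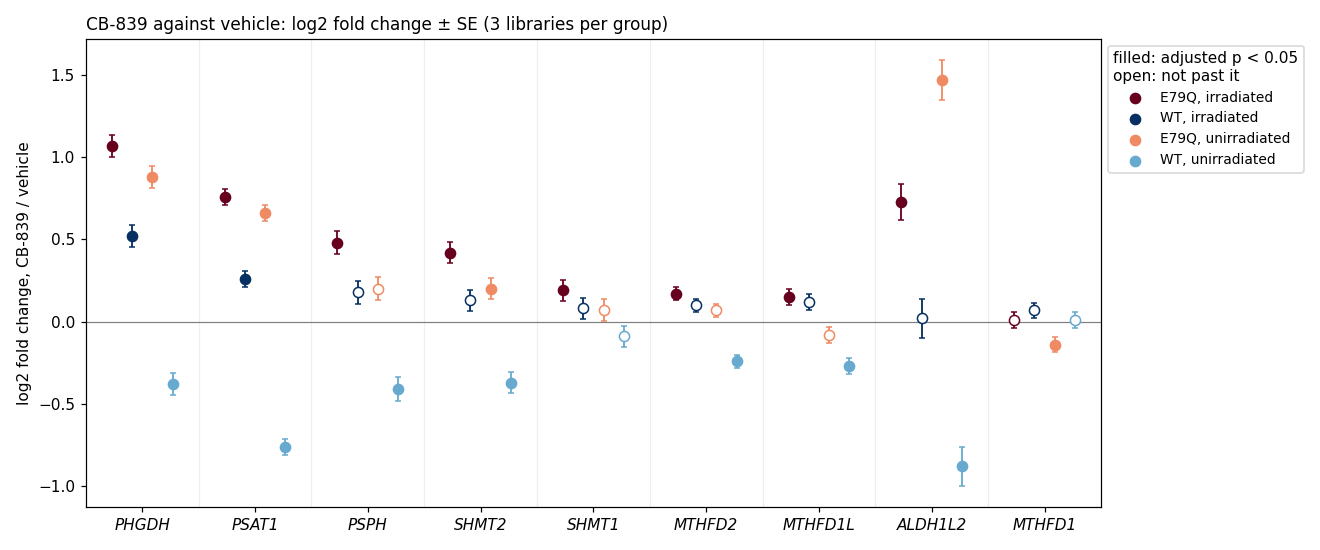
Log2 fold change (CB-839 over no CB-839) with its SE for each enzyme in irradiated E79Q, irradiated WT, unirradiated E79Q and unirradiated WT cells. Each group had 3 libraries. On the axis, vehicle stands for cells without CB-839, which were untreated cells in the unirradiated comparisons. Filled points passed an adjusted p of 0.05. Unirradiated WT points lie below 0 for 8 of the 9 enzymes, and the E79Q points of PHGDH, PSAT1 and ALDH1L2 lie between 0.66 and 1.47.

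After radiation, CB-839 no longer lowered any of the 9 enzymes in WT cells. It raised 8 of them in E79Q cells, against 12.9% of all genes raised there. In irradiated E79Q cells PSAT1 had 272, 272 and 284 CPM with CB-839, against 164, 165 and 161 CPM without. In irradiated WT cells it had 204, 196 and 193 CPM with the drug, against 166, 165 and 164 CPM without. The drug-treated libraries lay above the others in both genotypes, with log2 fold changes of 0.76 (SE 0.048, edgeR adjusted p = 1.17e-11; 0.78 without library 2 of the group with both) in E79Q and 0.26 (SE 0.048, adjusted p = 0.000725) in WT cells.

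PHGDH had 372, 464 and 395 CPM in irradiated E79Q cells given CB-839, against 192, 199 and 195 CPM with radiation alone. In irradiated WT cells it had 313, 294 and 300.5 CPM with the drug and 212, 213 and 208 CPM without. The groups were apart in both genotypes, and library 2 of the first group was its highest. The log2 fold change was 1.07 (SE 0.066, edgeR adjusted p = 6.65e-12) in E79Q cells, or 0.98 without library 2, and 0.52 (SE 0.066, adjusted p = 8.1e-06) in WT cells.

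ALDH1L2 had 52.5, 31.9 and 51.6 CPM in irradiated E79Q cells given CB-839, against 26.1, 26.7 and 28.8 CPM with radiation alone. Library 2 lay far below the other 2, though still above all libraries without the drug. In irradiated WT cells it had 30.7, 33.4 and 32.1 CPM with the drug and 30.6, 31.5 and 33.0 CPM without, which overlapped. The log2 fold change in E79Q cells was 0.73 (SE 0.11, edgeR adjusted p = 3.2e-05), or 0.95 without library 2, and that in WT cells was 0.02 (95% interval -0.23 to 0.26).

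Of the other enzymes in irradiated E79Q cells, PSPH rose by a log2 fold change of 0.48 (SE 0.070, edgeR adjusted p = 1.38e-05), or 0.46 without library 2 of the drug-treated group. SHMT2 rose by 0.42 (SE 0.063, edgeR adjusted p = 1.98e-05), or 0.33 without that library, whose 383 CPM stood above the 311 and 320 CPM of the others. MTHFD2 rose by 0.17 (SE 0.039, edgeR adjusted p = 0.00285), or 0.18 without that library. SHMT1 (0.19) and MTHFD1L (0.15) passed narrowly (edgeR adjusted p = 0.0302 and 0.0293). SHMT1 was not called without library 3 of cells with radiation alone (edgeR adjusted p = 0.132) or library 2 of cells with both (0.103), nor was MTHFD1L without library 1 (0.0581) or 2 (0.0721) of the group with radiation alone or library 2 of the group with both (0.12). In WT cells the other 7 enzymes ran from 0.02 to 0.18, none past the threshold.

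The drug changed 26% of all genes in irradiated E79Q cells, 12.9% upward, where the 9 enzymes had a median of 0.42 against -0.02 over all genes. In irradiated WT cells it changed 9.53% of all genes, 4.99% upward, and 2 of the 9 enzymes, with a median of 0.12 against -0.02. Fitted on the compared groups alone, irradiated E79Q cells gave 5 enzymes and 1601 genes called, against 8 enzymes and 4141 genes in the fit over all libraries. The enzymes lost there were MTHFD2 (edgeR adjusted p = 0.0769), SHMT1 (0.137) and MTHFD1L (0.172). MTHFD1L was also lost without the filter (0.109) and without the 4 libraries of most positive r with GC content (0.101).

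The genotype still altered the drug effect after radiation, for 3 of the 9 enzymes all 3 toward higher in E79Q, against 1.91% of all genes called and 1.26% in that direction, with medians of 0.30 and -0.01. The difference, E79Q minus WT, was 0.56 for PHGDH (SE 0.093, edgeR adjusted p = 0.00109), or 0.46 without library 2 of irradiated E79Q cells given the drug. PSAT1 had a difference of 0.49 (SE 0.068, edgeR adjusted p = 9.35e-05), or 0.50 without it. ALDH1L2 had one of 0.72 (SE 0.16, edgeR adjusted p = 0.0162), or 0.92 without that library. The call of ALDH1L2 was lost without library 1 of E79Q cells with radiation alone (edgeR adjusted p = 0.0528) or library 3 of E79Q cells with both (0.0575), and when the 4 compared groups were fitted alone (0.11), which left 2 enzymes and 132 genes called, against 3 enzymes and 305 genes.

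The drug effect itself differed between irradiated and unirradiated WT cells for 7 of the 9 enzymes, all 7 toward higher after radiation, against 4.02% of all genes called and 2.75% in that direction (medians 0.50 and 0). Irradiated cells without the drug had vehicle and unirradiated ones were untreated. An effect of vehicle therefore cannot be told apart in such a difference, in either genotype. The difference, irradiated minus unirradiated, was 1.03 for PSAT1 (SE 0.068, edgeR adjusted p = 3.5e-10), which ranked 1 of the 15956 genes by p here too. This comparison and that between genotypes share the 6 unirradiated WT libraries, so the ranks are not independent. PHGDH (0.90), ALDH1L2 (0.89), PSPH (0.59), SHMT2 (0.50), MTHFD1L (0.39) and MTHFD2 (0.34) had edgeR adjusted p of 2.61e-07 to 0.00159. SHMT1 (0.17, 95% interval -0.02 to 0.36) and MTHFD1 (0.06, -0.08 to 0.20) did not pass.

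In E79Q cells the same difference was called for 2 of the 9 enzymes, 1 each way, against 14.5% of all genes (7.83% higher, 6.66% lower), with medians of 0.14 and -0.04. ALDH1L2, raised by the drug in both settings, was raised less after radiation (-0.73, SE 0.16, edgeR adjusted p = 0.00699), and the value was -0.51 without library 2 of the irradiated, drug-treated group. MTHFD1L had a difference of 0.22 (SE 0.070, edgeR adjusted p = 0.0345), a call lost without untreated library 3 (0.0549), library 2 with radiation alone (0.0543), library 2 with the drug alone (0.0782) or library 2 with both (0.0691). It was also lost without the filter (0.0716) and with the compared groups alone (0.0893). PSAT1 had 0.09 (95% interval -0.05 to 0.24) and PHGDH 0.19 (95% interval 0.00 to 0.39).

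Untreated E79Q cells had less RNA of the serine synthesis enzymes than untreated WT cells. PHGDH averaged 224 ± 21.1 CPM in E79Q and 299 ± 8.37 CPM in WT cells, PSAT1 173 ± 7.15 and 209 ± 4.62, PSPH 51.7 ± 2.25 and 62.7 ± 3.47, and ALDH1L2 19.1 ± 0.791 and 32.5 ± 1.81 (SD, n = 3 each). SHMT1 had 78.1, 69.4 and 74.7 CPM in E79Q cells, against 89.8, 89.7 and 87.4 CPM in WT cells. Each of these 5 was lower in every E79Q library, and 7 of the 9 enzymes did not overlap between genotypes, against 37.1% of all genes. Their log2 fold changes were -0.42 for PHGDH, -0.28 for PSAT1 and for PSPH, -0.76 for ALDH1L2 and -0.26 for SHMT1, with edgeR adjusted p of 2.99e-05 to 0.00536. MTHFD1 (0.12, 95% interval 0.02 to 0.22), SHMT2 (-0.13, -0.26 to 0.01), MTHFD2 (-0.07, -0.15 to 0.02) and MTHFD1L (0.04, -0.07 to 0.14) did not pass. Thus 5 of 9 enzymes were lower, against 10.1% of all genes lower and 19.7% changed, with medians of -0.26 and -0.01. All 8 squamous markers were lower too, summing to 2040 to 2160 CPM in untreated E79Q and 3260 to 3280 CPM in untreated WT cells. Leukocyte markers summed to 0.396 to 1.47 CPM in E79Q and 2.95 to 3.55 CPM in WT cells. Endothelial markers summed to 1.59 to 2.34 CPM in E79Q and 2.52 to 3.96 CPM in WT cells, and fibroblast markers to 6.79 to 29.9 CPM in E79Q and 6.3 to 7.31 CPM in WT cells. The part of these shifts in the enzyme values was not tested.

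Under CB-839 alone 7 of 9 enzymes were higher in E79Q cells and none lower, against 8.3% of all genes higher and 15% changed (medians 0.33 and 0.01). The enzymes called both here and in untreated cells, PHGDH, PSAT1, PSPH and ALDH1L2, had the opposite sign in the 2 settings. ALDH1L2 (log2 fold change 1.58, SE 0.12), PSAT1 (1.15, SE 0.049) and PHGDH (0.85, SE 0.066) led, with edgeR adjusted p of 9.48e-16 to 1.62e-10. SHMT2 (0.44), PSPH (0.33), MTHFD2 (0.24) and MTHFD1L (0.23) followed with edgeR adjusted p of 1.13e-05 to 0.00173. SHMT1 (-0.10) and MTHFD1 (-0.03) did not pass. No overlap between genotypes was seen for 8 of the 9 enzymes, against 32.5% of all genes. Of the 8 squamous markers 7 were lower here as well, summing to 1770 to 1850 CPM in E79Q and 2800 to 2990 CPM in WT cells. These values and the drug effects above share libraries, so they are another view of the same 4 groups.

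**Figure D3:**
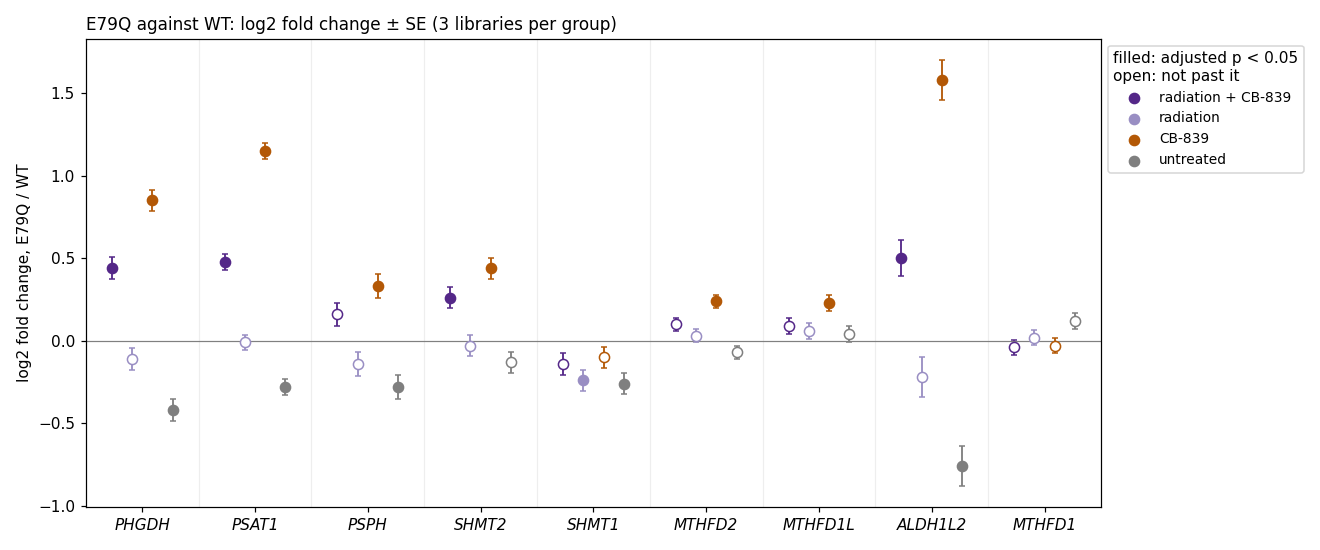
Log2 fold change (E79Q over WT) with its SE for each enzyme in cells with radiation and CB-839, radiation, CB-839 or neither, from 3 libraries per group. Filled points passed an adjusted p of 0.05. For PHGDH, PSAT1, PSPH and ALDH1L2 the untreated points lie below 0 and the CB-839 points above it, with the radiation points nearer 0 than either.

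In irradiated cells without the drug the genotypes differed in 1 of the 9 enzymes, which was lower, against 9.64% of all genes changed and 4.95% lower (medians -0.03 and 0.01). SHMT1 had 68.3, 69.3 and 62.2 CPM in E79Q and 76.8, 78.9 and 81.3 CPM in WT cells, without overlap. In all, 5 of the 9 enzymes did not overlap between genotypes, against 32.4% of all genes. Here too 7 of the 8 squamous markers were lower, summing to 1780 to 1850 CPM in E79Q and 2460 to 2610 CPM in WT cells. The log2 fold change of SHMT1 was -0.24 (SE 0.064, edgeR adjusted p = 0.0118), a call lost without WT library 3 (0.0618) or E79Q library 3 (0.1). PSAT1, at 164, 165 and 161 CPM in E79Q and 166, 165 and 164 CPM in WT cells, had a value of -0.01 (95% interval -0.11 to 0.09). The single enzyme became 3 when these 2 groups were fitted alone (3081 genes called, against 1538) and when the 4 libraries of most positive r with GC content were left out (2606 genes).

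With radiation and CB-839 together, 4 of 9 enzymes were higher in E79Q cells, against 4.4% of all genes higher and 7.26% changed (medians 0.16 and 0). PSAT1 had a log2 fold change of 0.48 (SE 0.048, edgeR adjusted p = 5.17e-08), and also 0.48 without library 2 of the E79Q group. PHGDH had 0.44 (SE 0.065, adjusted p = 3.35e-05 from edgeR), or 0.34 without that library. ALDH1L2 had 0.50 (SE 0.11, edgeR adjusted p = 0.00513), with overlapping groups, or 0.69 without library 2, and its call was lost without E79Q library 3 (0.0566). SHMT2 had 0.26 (SE 0.063, edgeR adjusted p = 0.00922), and its call was lost without WT library 2 (0.0652), WT library 3 (0.0949) or E79Q library 2 (0.0788, log2 fold change 0.15). Fitted alone, these 2 groups gave 2 enzymes (PHGDH and PSAT1) and 234 genes called, against 1159 genes. Of the squamous markers 5 were lower, summing to 1880 to 2140 CPM in E79Q and 2480 to 2600 CPM in WT cells.

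Irradiated cells without the drug had lower levels of some enzymes than untreated cells in both genotypes. In this comparison radiation, vehicle and a possible batch cannot be told apart. MTHFD1L had 123, 121 and 127 CPM in irradiated E79Q cells, against 160.3, 164 and 172.5 CPM in untreated E79Q cells. In WT cells it had 121, 119 and 115 CPM with radiation, against 162, 159.5 and 163 CPM without. The groups were far apart in both genotypes, with log2 fold changes of -0.42 (SE 0.050, edgeR adjusted p = 3.1e-07) in E79Q and -0.45 (SE 0.050, adjusted p = 1.52e-07) in WT cells. MTHFD1 also fell in both, by -0.34 (SE 0.046, edgeR adjusted p = 3.95e-06) in E79Q and -0.24 (SE 0.046, adjusted p = 0.00043) in WT cells.

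The enzymes of serine synthesis varied. PSAT1 had a log2 fold change of -0.08 (95% interval -0.18 to 0.02) in E79Q and -0.35 (SE 0.048, edgeR adjusted p = 5.57e-06) in WT cells. PSPH did not pass in either genotype (-0.05 in E79Q and -0.18 in WT cells). PHGDH fell by 0.20 on the log2 scale in E79Q cells (edgeR adjusted p = 0.0295) and by 0.50 in WT cells (adjusted p = 2.25e-06). The E79Q call of PHGDH was lost without untreated library 1 (0.178) or 3 (0.0788), or irradiated library 1 (0.0837) or 3 (0.0675). SHMT2 fell in WT cells (-0.24, edgeR adjusted p = 0.00762; 0.0537 without untreated library 1), and ALDH1L2 rose in E79Q cells (0.51, SE 0.12, edgeR adjusted p = 0.00289), against -0.03 in WT cells.

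Between irradiated and untreated E79Q cells 4 of the 9 enzymes thus differed, 1 higher and 3 lower after radiation. This stood against 22.3% of all genes (12.2% higher and 10.1% lower, medians -0.15 and 0.02). In WT cells 5 of 9 were lower after radiation, against 8.49% of all genes lower and 17.9% changed (medians -0.24 and 0). The difference between genotypes in the radiation effect was called for 1 enzyme, PSAT1 (0.27, SE 0.068, edgeR adjusted p = 0.0485), against 1.26% of all genes (0.815% in that direction; medians 0.10 and 0.01). That call was lost without any 1 of the 12 libraries, where edgeR adjusted p ran from 0.056 to 0.166. It was also lost with the replicate number as a block (edgeR adjusted p = 0.084), with RLE scaling (0.0722) and without the filter on low counts (0.317). ALDH1L2 (0.54, 95% interval 0.19 to 0.90) and PHGDH (0.30, 0.10 to 0.50) did not pass after adjustment.

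**Figure D4:**
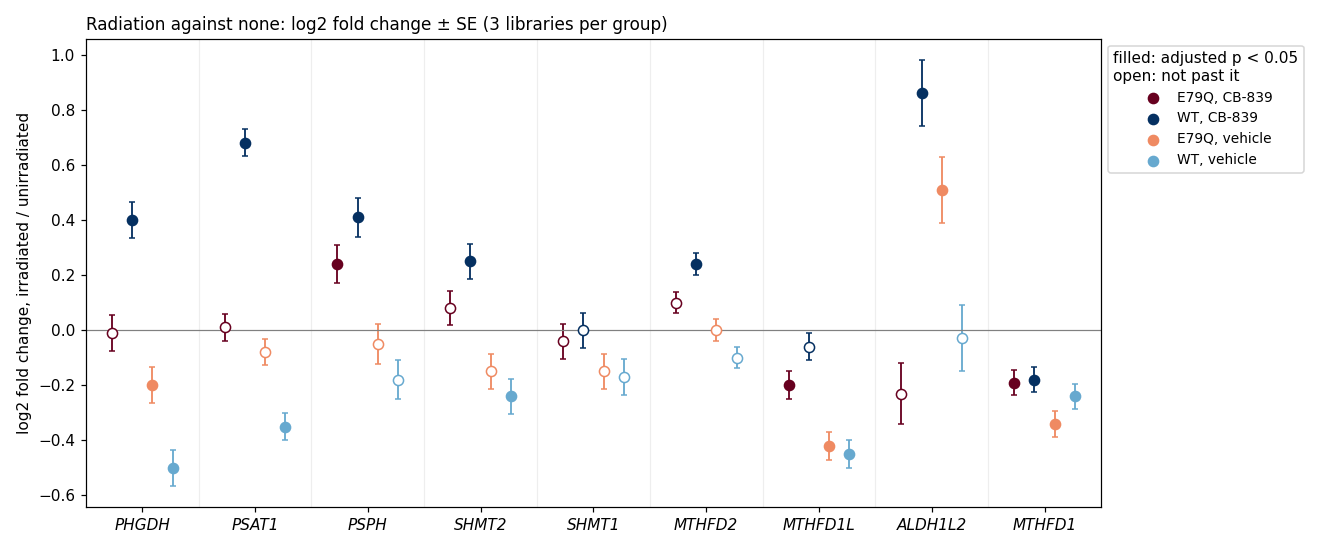
Log2 fold change (irradiated over unirradiated) with its SE for each enzyme in E79Q and WT cells with and without CB-839. Each group had 3 libraries. In the legend, vehicle stands for cells without CB-839, of which the unirradiated ones were left untreated. Filled points passed an adjusted p of 0.05. PSAT1, PSPH, PHGDH and ALDH1L2 stand highest in WT cells given CB-839, and MTHFD1 lies below 0 in all 4 settings.

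Under CB-839, radiation went with higher levels of 6 enzymes and a lower level of 1 in WT cells, against 13.2% of all genes higher, 10.4% lower and 23.7% changed (medians 0.25 and 0). The 6 were ALDH1L2 (0.86), PSAT1 (0.68), PSPH (0.41), PHGDH (0.40), SHMT2 (0.25) and MTHFD2 (0.24), with edgeR adjusted p of 5.39e-11 to 0.00439, and MTHFD1 was lower (-0.18, edgeR adjusted p = 0.00491; 0.056 without the filter on low counts). In E79Q cells given the drug, PSPH was higher (0.24, edgeR adjusted p = 0.0121; 0.0632 without library 2 of cells with the drug alone), while MTHFD1L (-0.20) and MTHFD1 (-0.19) were lower (edgeR adjusted p = 0.00319 and 0.00255; 0.0637 and 0.0728 without the filter). Without library 2 of the group with both these were 0.21, -0.24 and -0.22, still past the threshold. These were 3 of 9 enzymes against 29.2% of all genes, 15.3% higher and 13.9% lower (medians -0.01 and 0). All 3 were lost when the 2 groups were fitted alone (edgeR adjusted p = 0.0885 to 0.0937, with 1667 genes called against 4667).

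The radiation effect under CB-839 differed between genotypes for 3 enzymes, all toward lower in E79Q, against 0.714% of all genes lower and 1.08% changed (medians -0.17 and -0.01). PSAT1 had a difference of -0.67 (SE 0.068, edgeR adjusted p = 1.7e-06), rank 2 of all genes by p, or -0.66 without library 2 of irradiated E79Q cells given the drug. ALDH1L2 had -1.09 (SE 0.16, edgeR adjusted p = 0.000342), or -0.89 without that library. SHMT2, not called (-0.18), had -0.28 without it (edgeR adjusted p = 0.0494). PHGDH had -0.41 (SE 0.093, edgeR adjusted p = 0.0232), or -0.51 without that library. The call of PHGDH was lost without any 1 of 10 of the 12 libraries, namely library 1 (0.0551) or 3 (0.109) of irradiated and 1 (0.0821), 2 (0.0574) or 3 (0.0683) of unirradiated drug-treated E79Q cells, and library 1 (0.0834), 2 (0.0535) or 3 (0.0724) of irradiated and 1 (0.101) or 2 (0.108) of unirradiated drug-treated WT cells. It was also lost when the compared groups were fitted alone (0.174), which left 2 enzymes and 40 genes called, against 3 enzymes and 172 genes.

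Over the 8 groups, ALDH1L2 spanned a 3-fold range of group means, from 17.6 CPM in WT cells given CB-839 to 52.8 CPM in E79Q cells given CB-839. On the log2 scale that range was wider than in 92.6% of the genes tested, against 83% for PSAT1 (2.24-fold) and 80.1% for PHGDH (2.12-fold). The other 6 spanned 1.26 to 1.48-fold, with MTHFD2 narrowest at 21.7%. For PSAT1 the order was E79Q cells with both treatments (276 CPM) and with CB-839 (274), which overlapped, then untreated WT cells (209) and WT cells with both (198). The ranges of these last groups nearly met, with a lowest untreated library of 204 CPM and a highest library with both of 203.9 CPM. Untreated E79Q cells (173) followed, then irradiated WT (165) and E79Q cells (163), which overlapped, and WT cells with CB-839 (123), apart from all others. For PSPH and SHMT1 nearly all neighbours in the order overlapped. WT cells given CB-839 were the lowest group for PSAT1, PSPH, SHMT2, MTHFD2 and ALDH1L2.

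Correlations between members across the 24 libraries, which share the 8 groups, are given as a description. Pearson's r of log2 CPM was 0.90 between PSAT1 and SHMT2, 0.89 between PSAT1 and MTHFD2, 0.87 between PHGDH and PSAT1 and 0.86 between PSAT1 and ALDH1L2. MTHFD1 and MTHFD1L had an r of 0.81 with each other, whereas MTHFD1 had -0.15 with PSAT1 and -0.42 with ALDH1L2. SHMT1 had at most 0.36 with any other member. Among 10940 other protein-coding genes, those most like PSAT1 were WARS (r 0.972), PCK2 (0.963) and YARS (0.961), of which WARS and YARS encode cytosolic aminoacyl-tRNA synthetases and PCK2 the mitochondrial phosphoenolpyruvate carboxykinase. Those most like SHMT2 were YARS (0.957), PYCR1 (0.944) and MARS (0.941), and those most like MTHFD2 were CARS (0.929), TRIB3 (0.926) and RPTOR (0.916). PHGDH was closest to MLLT6 (0.93), PYCR1 (0.928) and TNRC18 (0.922), PSPH to PDIA4 (0.908), GPT2 (0.892) and TRIB3 (0.889), and ALDH1L2 to NBR1 (0.926), BBS2 (0.92) and CEBPG (0.918). MTHFD1 was closest to DKK1 (0.937), HMGN2 (0.937) and HNRNPK (0.931), MTHFD1L to SH2B3 (0.924), PCBP1 (0.907) and ANKH (0.905), and SHMT1 to C5orf38 (0.898), BCAM (0.89) and AFAP1L2 (0.883).

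The rest of the pathway was read from lists chosen, like the members, with earlier results known. Among 18 tested serine and glycine enzymes and carriers, the difference in the effect of CB-839 between unirradiated E79Q and WT cells was called higher for 5 and lower for 2 (median 0.22). Of all genes, 14.3% were called in that comparison, 7.46% toward higher in E79Q, which is also the share to set beside the lists that follow. SLC6A9, a glycine transporter, had a difference of 3.16 (SE 0.22, edgeR adjusted p = 8.07e-11), with log2 fold changes of 1.12 in E79Q and -2.03 in WT cells. SLC1A4 (2.21) and SLC1A5 (0.89), carriers of neutral amino acids that include serine, were also higher, while SLC38A5 (-0.44) and SFXN1 (-0.30), the mitochondrial serine carrier, were lower. SLC1A4, SLC1A5, SLC38A5 and SFXN1 had edgeR adjusted p of 3e-09 to 0.00113. Among 14 tested folate and one-carbon genes, 3 were lower and none higher (median -0.16), against 1090 of all 15956 genes toward lower in E79Q. The 3 included SLC19A1, the reduced folate carrier (-0.49), and TYMS, thymidylate synthase (-0.41), with edgeR adjusted p of 0.0017 and 0.00699. Of 10 tested genes of the methionine cycle and transsulfuration, only CBS, cystathionine beta-synthase, was called (2.77, SE 0.46, edgeR adjusted p = 0.000101), against 14.3% of all genes.

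ATF4 itself averaged 293 ± 20.1 CPM in E79Q cells given CB-839 and 286 ± 15.1 CPM in untreated E79Q cells, against 184 ± 2.11 CPM and 384 ± 21.6 CPM in the matching WT groups (SD, n = 3 each). The log2 fold change of ATF4 with CB-839 was 0.04 in E79Q (edgeR adjusted p = 0.737) and -1.06 in WT cells (adjusted p = 5.53e-13). Its difference in drug effect was 1.10 (SE 0.085, edgeR adjusted p = 4.44e-10). After radiation ATF4 had 0.41 in E79Q (edgeR adjusted p = 1.72e-05) and -0.16 in WT cells (adjusted p = 0.0859). Without radiation, of 19 genes of the ATF4 and amino acid response, all tested, CB-839 raised 8 and lowered 2 in E79Q cells. In WT cells it raised 1 and lowered 15. Of all genes, the drug changed 19.8% in E79Q and 14.8% in WT cells. The difference was called higher for 15 and lower for 2 (median 1.26), against 14.3% of all genes called and 7.46% higher. STC2 (1.27), DDIT4 (2.35) and TRIB3 (1.52) had the smallest p in the list. Whether these genes have a part in the changes of the serine enzymes was not tested. NQO1 had a difference of 0.06 (SE 0.092, edgeR adjusted p = 0.727) between the genotypes in the drug effect without radiation. After radiation CB-839 raised NQO1 in E79Q (0.42, edgeR adjusted p = 3.04e-05) and in WT cells (0.45, adjusted p = 4.95e-05). In these bulk samples a lower share of expressing cells and less RNA per cell cannot be told apart.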

How the data were processed

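RNA of 24 SAS libraries was sequenced by the authors. The deposited values are raw counts of reads per gene, not normalized; the table's gene_length column holds other values, lengths in bases. Per the submitters' processing notes, STAR, HTSeq and GRCh38 were used. No version, annotation release or strand setting is stated in them. The analysis used edgeR 4.0.16 in R 4.3.3: filterByExpr over the 8 groups, TMM scaling and a quasi-likelihood fit with 1 mean per group on all libraries (16 residual degrees of freedom, common biological coefficient of variation 7.19%). P-values were adjusted by Benjamini-Hochberg over 15956 genes in each of 18 comparisons, 12 simple and 6 of differences, and called under 0.05. With 3 libraries against 3, an exact test of 1 gene cannot give a p under 0.1, so calls rest on the pooled spread. Standard errors and 95% intervals are of log2 fold changes from that fit. CPM use TMM-scaled library sizes, and correlations used log2 CPM with a prior count of 2. Within the rule for names, members were all named, the 3 context genes of smallest p in each direction could be, and the 3 genes of highest r to each member. The members and lists were chosen with earlier results of these data known. Gene lengths of principal transcripts, overlaps and GC content (99.97% of tested genes) came from GENCODE, and promoters from RefSeq. The fit was checked on simulated counts. Some genes that the rule allowed are left out. Alternatives were DESeq2 1.42.0, RLE scaling, no filter, a replicate block, the compared groups alone, and leaving out each library or the 4 libraries of most positive r with GC content.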

Additional observations from a re-analysis of the deposited data

Results flagged for a closer look

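The 6 comparisons of differences asked whether an effect differed between 2 settings, and the enzymes that passed their own test of the difference (edgeR, adjusted p under 0.05) are given here with that log2 difference, without an explanation. For CB-839 without radiation, E79Q minus WT, they were ALDH1L2 (2.35), PSAT1 (1.43), PHGDH (1.26), PSPH (0.61), SHMT2 (0.56) and MTHFD2 (0.31). For CB-839 after radiation, E79Q minus WT, they were ALDH1L2 (0.72), PHGDH (0.56) and PSAT1 (0.49). For CB-839 in WT cells, irradiated minus unirradiated, they were PSAT1 (1.03), PHGDH (0.90), ALDH1L2 (0.89), PSPH (0.59), SHMT2 (0.50), MTHFD1L (0.39) and MTHFD2 (0.34). In E79Q cells the same difference was called for ALDH1L2 (-0.73) and MTHFD1L (0.22). For radiation, E79Q minus WT, PSAT1 was called without the drug (0.27), and ALDH1L2 (-1.09), PSAT1 (-0.67) and PHGDH (-0.41) under CB-839. The call of PSAT1 without the drug was lost on leaving out any 1 of its 12 libraries. Also lost in some alternative runs were those of PHGDH (-0.41), of MTHFD1L in E79Q cells (0.22) and of ALDH1L2 after radiation (0.72). The comparisons share groups, so these values are not independent of each other.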

How the results depend on the processing

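The text makes 80 member calls in all, and 62 of them held in every alternative run. No called value changed sign. With DESeq2, 4 enzymes were called in place of 2 for the difference of the drug effect in E79Q cells, irradiated minus unirradiated. With RLE scaling, 0 were called in place of 1 for the difference of the radiation effect without drug. Without the filter, 6 were called in place of 7 for radiation in WT cells under CB-839, 1 in place of 3 for radiation in E79Q cells under CB-839, and 3 in place of 5 for CB-839 in unirradiated E79Q cells. The count for the difference of the radiation effect without drug stayed at 1 there, though PSAT1 itself was lost (edgeR adjusted p = 0.317).

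Replicate numbers did not pair the libraries: of 84 pairs with the same number, 0 had deviations correlated above 0.1 (r -0.18 to 0.09), and 4 of 24 libraries correlated best with their own number. With the number as a block, 0 enzymes in place of 1 were called for the difference of the radiation effect without drug, and no other call was lost.

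With the compared groups alone, enzyme counts were 3 in place of 1 (E79Q against WT, radiation), 2 in place of 4 (the same with CB-839), 8 in place of 5 (radiation in WT), 0 in place of 3 (radiation in E79Q under CB-839), 5 in place of 8 (CB-839 in irradiated E79Q), 3 in place of 1 (radiation difference without drug), 2 in place of 3 (radiation difference under CB-839, and drug difference after radiation) and 1 in place of 2 (drug difference by radiation in E79Q). Without the 4 libraries of most positive r with GC content (0.17 to 0.48) they were 3 (E79Q against WT, radiation), 8 (radiation in WT) and 3 (radiation difference without drug), and 5 in place of 3 for the drug difference between genotypes after radiation. The cause was not tested.

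Leaving out 1 library at a time gave 0 to 1 enzymes for E79Q against WT after radiation (1 with all), 3 to 4 for CB-839 in unirradiated E79Q (5 with all), 0 to 0 for the radiation difference without drug (1 with all) and 1 to 5 for the drug difference by radiation in E79Q (2 with all). It gave 6 to 6 and 7 to 7 for the drug differences between genotypes without radiation and by radiation in WT, as with all libraries.

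Counts over all genes moved by over 1.5 times in some fits. With the compared groups alone they were 4322 in place of 2855 (radiation in WT), 611 in place of 201 and 40 in place of 172 (radiation differences without and with drug), 132 in place of 305 (drug difference after radiation), and 1417 in place of 641 and 831 in place of 2312 (drug difference by radiation in WT and E79Q). Without the 4 libraries they were 4313 (radiation in WT), 507 (radiation difference without drug), 719 (drug difference after radiation), and 1824 and 1413 (drug difference by radiation in WT and E79Q). Without the filter, the drug difference by radiation in WT had 997. Depth limits GLDC, which could not be tested.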

Other observations

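Among untreated cells, TYMS (log2 fold change 0.40, SE 0.072), SLC19A1 (0.27, SE 0.073) and ATIC, an enzyme of purine synthesis that uses formyl folate (0.17, SE 0.058), were higher in E79Q than in WT cells, with edgeR adjusted p of 0.000171 to 0.0347. They were 3 of 14 tested folate and one-carbon genes, with none lower and a median of 0.05, a share near the 19.7% of all genes called in that comparison. Of the 18 serine and glycine genes outside the members, 1 was higher, SLC38A5 (0.43), and 6 were lower, with SLC6A9 (-1.06), SPTLC2, a subunit of the enzyme that uses serine to make sphingoid bases (-0.37), and SLC38A2 (-0.31) at the smallest p. In irradiated E79Q cells CB-839 raised SLC1A4 (1.58), SLC6A9 (1.12) and SLC1A5 (0.39), and lowered MTRR (-0.25) and MTR (-0.39), the last a methionine synthase that uses methyl folate, with edgeR adjusted p of 3e-07 to 0.00601. Both lists were mixed there, with 6 of the 18 serine and glycine genes higher and 4 lower. Of the 10 methionine cycle and transsulfuration genes 2 were higher and 4 lower, against 26% of all genes changed and 12.9% higher.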
